A study of Saccharomyces cerevisiae with 8 samples.

Results

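Poly(A) RNA of saturated preSPO cultures of the diploid Saccharomyces cerevisiae strain BY4743 was compared between cells labelled as cured of the [SMAUG+] prion and cells labelled as carrying it. The comparison took 4 of the 8 libraries of the study, 2 prion and 2 cured, chosen by their sample titles. The other 4 libraries were from cells moved to SPO (sporulation) medium for 14 h. They shared in the filter on low counts, the library scaling and the estimate of spread. Their own values are given only where SPO medium is named. The labels give all libraries a wild-type genotype. The prion cells had no treatment (titles natSMAUG+), and the cured cells came from selective curing of [SMAUG+] (titles perfect_cured). Both states were grown for 48 h in preSPO medium, the culture from which cells go on to sporulation medium. The sources used here do not say whether both cured replicates descend from a single cured clone. The series' design text speaks of biological replicates, but for VTS1 overexpression and a VTS1 deletion, which no sample label names. The groups follow the sample labels, and if their replicates were not separate cultures, the p-values measure technical spread only. Libraries are called prion 1, prion 2, cured 1 and cured 2.

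[SMAUG+] is a self-propagating state of Vts1, the yeast member of the Smaug family. Vts1 binds hairpins in mRNAs through its SAM domain and recruits the Ccr4-Not deadenylase, which shortens poly(A) tails and starts mRNA decay. Prions of this kind pass through cytoplasm to daughter cells and can be lost without any change in DNA. BY4743 is homozygous for deletions in HIS3, LEU2 and URA3 and heterozygous for deletions of MET17 (also called MET15) and LYS2. In yeast, sulfate is taken up by permeases, activated by ATP sulfurylase, reduced to sulfide, and joined to O-acetylhomoserine by the MET17 enzyme to make homocysteine.

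The estimated counts of the preSPO libraries summed to 6983349 and 9756824 for prion 1 and 2, and to 6246205 and 21796873 for cured 1 and 2. Levels are given in CPM, the count scaled to a library of fixed size, on library sizes scaled by the trimmed mean of M-values (TMM), and a count of 3 was worth 0.127 to 0.415 CPM in these libraries. Of 6713 targets, 6346 passed the filter on low counts. Prion 2 stood apart. Its Spearman correlation with prion 1 over the tested genes was 0.968, below that of prion 1 with cured 1 at 0.979, while cured 1 and cured 2 correlated at 0.984. Prion 2 was also nearer to the SPO libraries (0.79 to 0.808) than were the other preSPO libraries (0.717 to 0.763). Differences between libraries also followed coding length. Their Spearman correlation with length was -0.258 for prion 2 minus prion 1 and -0.34 for cured 2 minus cured 1. Cured 1 minus prion 2 gave 0.209 and cured 2 minus prion 1 gave -0.233. Cured 1 minus prion 1 gave -0.031 and cured 2 minus prion 2 gave 0.00392. The part of length in the differences below was not tested. The summed level of 14 sporulation markers was 149 to 153 CPM in all 4 preSPO libraries, against 1590 to 2810 CPM in the SPO libraries. Most of the SPO sum was 1 gene, SPS100, at 1796 and 1295 CPM in prion and 2439 and 1181 CPM in cured. Behind the even preSPO sum, single markers differed between prion 1 and prion 2 in both directions, such as DMC1 (8.19 and 13.55 CPM) and IME2 (12.4 and 7.21 CPM). Of 20 haploid-cell markers, which a diploid culture should hold at low levels, 18 were tested and 0 called by the edgeR test described below, which called 0.93% of all genes. Their sum was 231 and 296 CPM in the prion libraries and 218 and 207 CPM in the cured libraries. Without overlap 7 were lower and 1 higher in cured (23.9% and 23% of all genes were). RME1 was nearest to a call (log2 fold change -0.97, SE 0.196, edgeR adjusted p = 0.0685, and -0.79 without prion 2). Single markers ranged widely, from AXL1 at 32.5 to 37.8 CPM to the a-factor gene MFA1, at 0 in every library of the study. In such bulk RNA, fewer cells of a kind and less RNA per cell cannot be told apart. Every group value is therefore accompanied, where it matters, by the value without prion 2.

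MET17 was absent from the RNA of both cured libraries, and this coincided exactly with the label. It had 3207 and 3867 counts in prion 1 and 2, and 0 and 1 counts in cured 1 and 2. The gene (YLR303W, R64 chromosome XII, 732542 to 733876) encodes O-acetylhomoserine sulfhydrylase. Per count sequenced, cured held 0.00835% of what prion held (95% exact interval 0.000211 to 0.0465, counting error only). The edgeR quasi-likelihood test did not call it (log2 fold change -13.26, SE 4.06, Benjamini-Hochberg adjusted p = 0.138). MET17 varied among the SPO libraries that share the estimate of spread, with 1363 and 1 counts in prion and 447 and 13 in cured, and the part of this in the missed call was not tested. Over the alternative analyses that adjusted p ranged from 1.16e-06 to 0.54, and 6 of 18 called the gene. In every difference described below, curing and the lack of MET17 transcripts cannot be told apart.

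The nearest named genes of MET17 were detected in all 4 libraries. HRI1, the nearest named gene on the left, had 127 and 88.6 CPM in prion and 125 and 135 CPM in cured (log2 fold change 0.27, SE 0.197), and EXG1 beyond it had a log2 fold change of -0.58 (SE 0.219), neither called. ACO1, the next gene on the right, was at 373 and 331 CPM in prion and 170 and 131 CPM in cured and was called lower. The median log2 fold change of the genes on each nuclear chromosome lay between -0.09 and 0.04. LYS2, the other heterozygous deletion of the strain, overlapped between the states, with 169 and 170 CPM in prion and 171 and 159 CPM in cured. HIS3 had a log2 fold change of -0.14 (SE 0.257), with 186 and 304 CPM in prion and 201 and 242 CPM in cured. LEU2 had at most 2 counts and URA3 at most 24 in a preSPO library.

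A second presence and absence difference, seen in preSPO medium only, ran the other way. YER160C, a Ty retrotransposon reading frame on chromosome V (492856 to 498124), had 3 and 0 counts in prion and 534 and 12034 in cured, or 73.9 and 509 CPM. Here prion held 0.0404% of what cured held per count sequenced (95% exact interval 0.00834 to 0.118). Ty copies are near-identical and kallisto estimates how their shared reads are split, which leaves the copy of origin uncertain, and the cured libraries differed strongly from each other. In SPO medium YER160C was at 310 and 306 CPM in prion and 480 and 508 CPM in cured. Its near absence from prion was thus limited to the preSPO libraries. Among those libraries, MET17 and YER160C were the only targets with 5 or fewer counts in both of a state and at least 50 in both of the other.

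VTS1 itself, the gene of the prion protein (chromosome XV, 1011189 to 1012760), was at 61.3 and 29.1 CPM in prion and 56.5 and 56.8 CPM in cured. The groups overlapped, and the log2 fold change of 0.33 (SE 0.315, Benjamini-Hochberg adjusted p = 0.594 by edgeR) became -0.11 without prion 2. YIR016W, a known Vts1 target, had 25.3 and 43.2 CPM in prion and 19.8 and 26.3 CPM in cured, also overlapping. Its log2 fold change of -0.57 (SE 0.257, edgeR adjusted p = 0.266) was -0.12 without prion 2.

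Across all genes, 59 of 6346 (0.93%) were called at an adjusted p under 0.05, 29 higher in cured (0.457%) and 30 lower (0.473%). Their log2 fold changes had absolute sizes from 0.826 to 10.7, and their adjusted p from 0.0228 to 0.0484 lay close to the threshold. All 59 separated the states without overlap between replicates, which 46.9% of all tested genes did as well (23% higher in cured, 23.9% lower). Scaled by library size alone the split was 34 higher and 18 lower, and on log2(TPM + 1) with limma it was 62 and 20, there with the median of all genes at 0.104.

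Seen replicate by replicate, the 59 genes moved the same way in each of the 4 pairings of a cured with a prion library. The median difference of the higher genes was 1.28 and 1.25 for cured 1 and cured 2 against prion 1, and 1.68 and 1.54 against prion 2. That of the lower genes was -1.13 and -1.25 against prion 1, and -1.33 and -1.43 against prion 2. Prion 2 was the extreme library for most of them: of the 30 lower genes 22 were highest in prion 2, and of the 29 higher genes 22 were lowest in it. The smallest difference of a called gene in any pairing was 0.659 upward and -0.688 downward.

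The count of calls rested on which libraries were in the fit. It was 466 without prion 1, 2 without prion 2, 1 without cured 1, 1 without cured 2, and 0 without prion SPO replicate 1 or prion SPO replicate 2, where 956 and 953 genes had an unadjusted p under 0.05. Without prion SPO replicate 2 and cured SPO replicate 1 together, the 2 libraries whose MET17 counts go against their labels, 10 genes were called. In all 18 alternatives each of the 59 kept its sign. DESeq2 called 441 genes, including all 59.

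**Figure D1:**
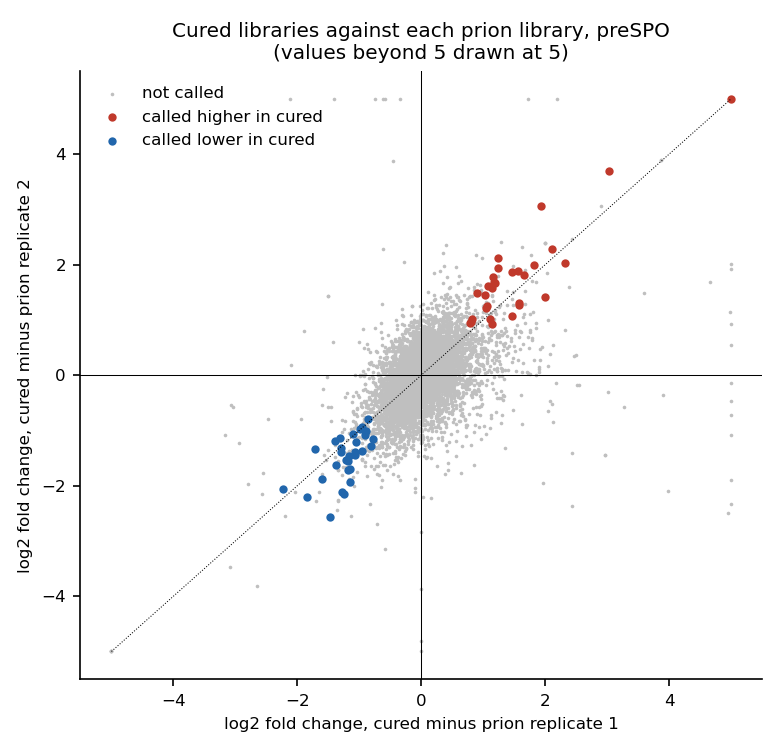
Each point is 1 tested gene. The horizontal axis gives the log2 fold change of the cured libraries against prion 1 alone and the vertical axis that against prion 2 alone, both on the log2 CPM scale of the edgeR fit with values beyond 5 drawn at 5. The 29 genes called higher (red) and the 30 called lower (blue) lie on the same side of 0 on both axes, and the lower genes mostly below the dotted line of equal values.

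Genes of sulfate uptake, sulfate activation and sulfite reduction rose in the cured libraries. Of 27 listed genes for sulfate assimilation and methionine metabolism (MET17 not among them), 7 were called higher and 0 lower (0.457% and 0.473% of all genes were). Without overlap 15 were higher and 6 lower (55.6% and 22.2%, beside 23% and 23.9% of all genes), so only the higher share exceeded that of all genes. SUL2 and SUL1 encode the sulfate permeases. SUL2 stood at 80.7 and 71.5 CPM in prion and 311 and 259 CPM in cured. SUL1 stood at 36.0 and 32.0 CPM in prion and 75.4 and 73.4 CPM in cured. For both genes the states were farther apart than the replicates of either state, and the log2 fold changes were 1.91 (SE 0.222, edgeR adjusted p = 0.0228) and 1.13 (SE 0.201, edgeR adjusted p = 0.0455).

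The activation enzymes followed. MET3, ATP sulfurylase, was at 138 and 63.1 CPM in prion and 616 and 434 CPM in cured, a rise of 2.39 on the log2 scale (SE 0.353, edgeR adjusted p = 0.0297) that remained 1.93 without prion 2. MET14, adenylylsulfate kinase, was at 108 and 70.3 CPM in prion and 248 and 235 CPM in cured (log2 fold change 1.44, SE 0.21). In both genes the gap between the highest prion and the lowest cured library was wider than the gap between the replicates of either state. MET16, the reductase that follows, was at 212 and 174 CPM in prion and 429 and 505 CPM in cured (log2 fold change 1.28, SE 0.283) without passing the test (edgeR adjusted p = 0.0767).

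Sulfite reductase has an alpha and a beta subunit, MET10 and MET5, and needs siroheme, which MET1 helps make. MET10 was at 350 and 307 CPM in prion and 774 and 690 CPM in cured. MET5 was at 183 and 134 CPM in prion and 466 and 342 CPM in cured. MET1 was at 152 and 83.1 CPM in prion and 356 and 365 CPM in cured. Each separated the states and was called, with log2 fold changes of 1.16, 1.35 and 1.62. MET22, the phosphatase that removes the nucleotide by-product of the pathway, missed the threshold (log2 fold change 1.19, SE 0.225, edgeR adjusted p = 0.0527).

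Downstream of sulfide the genes did not form such a run. MET6, methionine synthase, was at 588 and 593 CPM in prion and 1008 and 648 CPM in cured (log2 fold change 0.49, SE 0.251). CYS3, cystathionine gamma-lyase, was lower without overlap, at 421 and 390 CPM in prion and 318 and 339 CPM in cured (log2 fold change -0.30, SE 0.231). SAM1 and SAM2, the S-adenosylmethionine synthetases, had log2 fold changes of -0.01 and 0.16 with overlapping groups. None of these 4 was called. MHT1 and MMP1, for use and uptake of S-methylmethionine, had log2 fold changes of 1.09 (SE 0.315) and 0.99 (SE 0.212) and were not called. The list's median log2 fold change was 0.487 beside -0.0048 for all genes, and it rested on the cured libraries, being 0.243 without cured 1 and 0.771 without cured 2 (0.493 without prion 2). It was positive in each of the 4 pairings (0.156 to 0.78), and the smallest pairing was below the median difference of the list between prion 2 and prion 1 (-0.192) in size.

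Of 6 regulators of the pathway, MET32 was called higher (0.457% of all genes were). This zinc-finger protein, which binds DNA together with the activator Met4, was at 71.2 and 57.4 CPM in prion and 199 and 223 CPM in cured (log2 fold change 1.72, SE 0.177, edgeR adjusted p = 0.0228). MET30, the F-box protein that restrains Met4, was at 79.3 and 78.4 CPM in prion and 132 and 126 CPM in cured (log2 fold change 0.71, SE 0.16). MET4 (log2 fold change 0.60, SE 0.248) and its cofactor gene MET28 (0.30, SE 0.214) were also higher without overlap and, like MET30, were not called. The median of the 6 was 0.452, with pairings from 0.404 to 0.689.

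**Figure D2:**
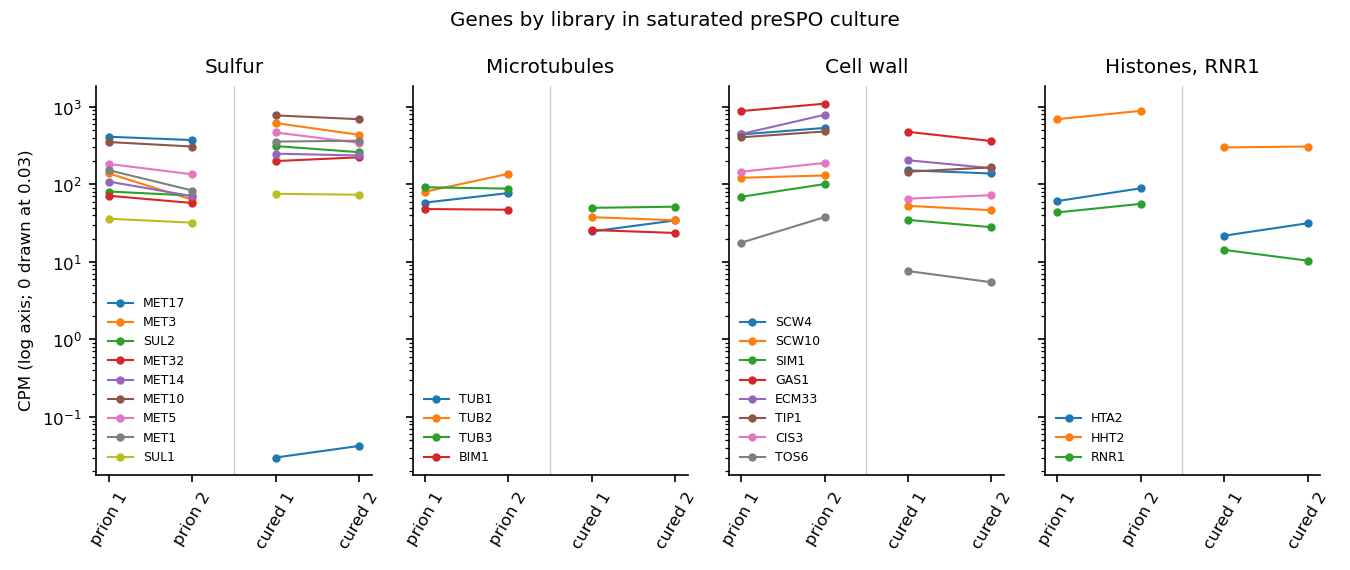
CPM on a log axis of called genes and of MET17 in each preSPO library, in 4 panels for sulfur genes, microtubule genes, cell wall genes, and histone genes with RNR1. Lines join a gene's replicates within a state. The 0 counts of MET17 in cured 1 are drawn at 0.03. All sulfur genes but MET17 sit higher in both cured libraries, and all genes of the other 3 panels sit lower.

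Both strands of the 300 bases before the coding start in the R64 genome from RefSeq were searched for motifs, among them CACGTG, the site of Cbf1, and TGTGGC, the site of Met31 and Met32. CACGTG was in the windows of 3.57% of 5823 tested genes, in 5 of the 27 called-higher genes with a window (18.5%) and in 0 of 26 called-lower genes. TGTGGC was in 8.04% of all windows, in 8 of 27 (29.6%) and in 3 of 26 (11.5%). Both motifs stood in 24 windows, 0.412% of all, and 4 of these belonged to called-higher genes (14.8%). A further 5 motifs each stood in 1 to 3 windows of called-higher genes (3.7% to 11.1%, beside 1.31% to 22.3% of all). In called-lower genes the SBF motif CNCGAAA was in 6 of 26 windows (23.1%, beside 14.6% of all), the Msn2 and Msn4 motif AGGGG in 7 (26.9%, beside 22.3%), and the Yap1 motif TTACTAA in 4 (15.4%, beside 7.97%). The MBF motif ACGCGT was in 2 windows (7.69%, beside 3.5%) and the Aft1 motif TGCACCC in 0 (beside 1.31%). The 4 with both Cbf1 and Met31 or Met32 motifs are MET10, MET14, SER33 and RAD59, of which the last encodes a recombination protein of the Rad52 family. Their stretches from 10 bases before the first motif to 10 after the last, or to the window's edge, are shown 5′ to 3′ on the gene's strand, because they set side by side sulfur genes and genes of other pathways with the same pair of motifs. Capitals mark the motif CACGTG, the motif TGTGGC and, where that one lies on the opposite strand, its reverse complement GCCACA.
MET10 (chrVI:213053-213122, plus strand): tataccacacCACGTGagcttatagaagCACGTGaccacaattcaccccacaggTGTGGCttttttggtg
MET14 (chrXI:439562-439623, minus strand): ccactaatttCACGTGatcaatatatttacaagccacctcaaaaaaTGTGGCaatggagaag
SER33 (chrIX:222718-222790, minus strand): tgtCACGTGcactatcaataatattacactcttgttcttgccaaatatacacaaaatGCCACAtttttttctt
RAD59 (chrIV:345020-345161, minus strand): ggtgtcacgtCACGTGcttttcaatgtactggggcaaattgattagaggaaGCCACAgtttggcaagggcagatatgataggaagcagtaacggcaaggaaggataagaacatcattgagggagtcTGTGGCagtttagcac

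RAD59 was at 53.1 and 64.3 CPM in prion and 215 and 312 CPM in cured. It rose by 2.17 on the log2 scale (SE 0.328, edgeR adjusted p = 0.0297) and by 2.31 without prion 2. Its CACGTG begins 198 bases before the coding start and its 2 Met31 and Met32 motifs 157 and 82 bases before it. No other gene lies in these windows. Over all 24 genes with both motifs, 12 were higher and 5 lower without overlap (23% and 23.9% of all genes were). Their median log2 fold change was 0.291 (0.428 without prion 2). The group was not uniform, since CYS3, ADE3 (log2 fold change -0.42) and SND2 (-0.76) carry both motifs and were lower, none of them called. MET16, MET22 and BNA3, an enzyme of kynurenine metabolism, had both motifs with log2 fold changes of 1.28, 1.19 and 1.00. MET3, MET5, SUL2 and GRX8 held only TGTGGC, MET1 only CACGTG, and SUL1 and MET32 neither. A match describes these letters and says nothing of binding.

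**Figure D3:**
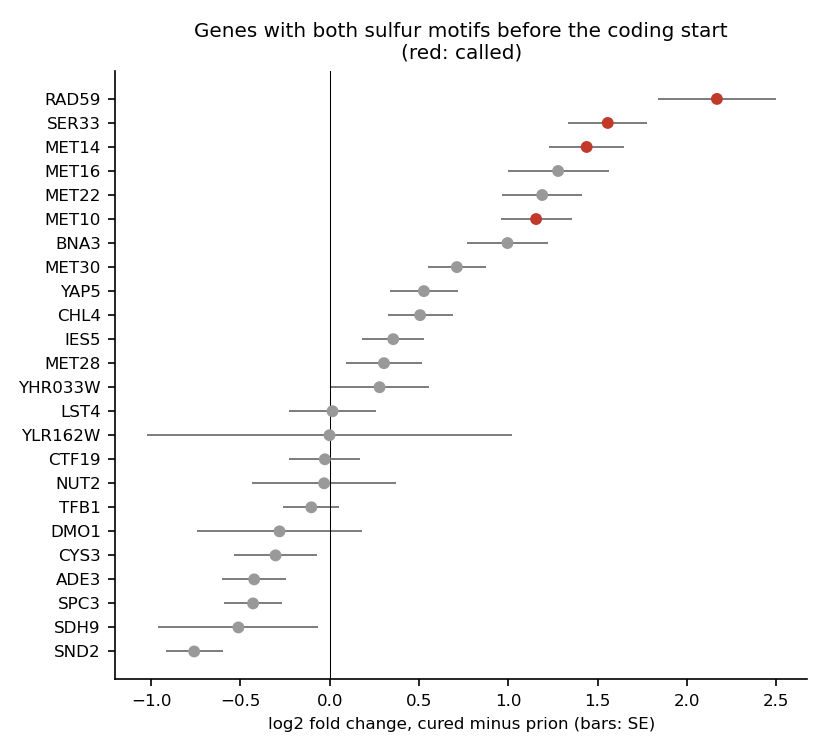
Log2 fold change of cured minus prion, with its SE as bars, for the 24 genes whose 300 bases before the coding start hold both CACGTG and TGTGGC. RAD59 (2.17), SER33, MET14 and MET10 are called (red), and the values extend down to -0.76 for SND2.

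Serine and one-carbon metabolism feeds methyl groups into methionine and showed changes in both directions. SER33, a phosphoglycerate dehydrogenase that starts serine synthesis, was at 79.1 and 48.5 CPM in prion and 187 and 187 CPM in cured (log2 fold change 1.56, SE 0.221, edgeR adjusted p = 0.0297). Its paralog SER3 was lower without overlap, at 205 and 212 CPM in prion and 147 and 127 CPM in cured (log2 fold change -0.60, SE 0.216, not called). SER1 (0.66, SE 0.176) and SER2 (0.51, SE 0.184), the following steps, were higher without overlap and not called. SHM1, the mitochondrial serine hydroxymethyltransferase, fell from 110 and 124 CPM to 55.8 and 61.8 CPM (log2 fold change -0.99, SE 0.165, edgeR adjusted p = 0.04). The cytosolic enzyme SHM2 was at 1052 and 585 CPM in prion and 1540 and 1446 CPM in cured (log2 fold change 0.87, SE 0.281, not called). GCV1 (0.81) and GCV2 (0.67) of the glycine cleavage complex and MTD1 (0.85) were higher without overlap but depended on prion 2, without which they were 0.39, 0.21 and 0.41. The median over 14 genes was 0.499, and 0.299 without prion 2.

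In nucleotide synthesis 1 gene was called, lower in cured (0.473% of all genes were called lower). Of 14 purine genes 9 were higher and 4 lower without overlap (64.3% and 28.6%, beside 23% and 23.9% of all genes), and the call was among the lower. ADE4, the first enzyme of the purine pathway, was at 306 and 146 CPM in prion and 451 and 475 CPM in cured (log2 fold change 1.03, SE 0.307, not called). ADE8 was at 45.7 and 45.9 CPM in prion and 77.9 and 88.1 CPM in cured (0.86, SE 0.253, not called). The guanine branch had lower values. IMD4, an IMP dehydrogenase, fell from 135 and 133 CPM to 72.0 and 64.1 CPM (log2 fold change -0.98, SE 0.15, edgeR adjusted p = 0.0297), and its paralog IMD3 had -0.86 (SE 0.438, not called). The purine median of 0.423 was 0.149 without prion 2 and 0.802 without prion 1. Of 10 pyrimidine genes 6 were lower and 0 higher without overlap, and 0 were called by edgeR (5 at an unadjusted p under 0.05, 3 by DESeq2). URA2, the first and regulated enzyme, was at 1725 and 1933 CPM in prion and 1040 and 793 CPM in cured (log2 fold change -0.997, SE 0.309). URA5 was at 385 and 380 CPM in prion and 228 and 215 CPM in cured (-0.79, SE 0.167, adjusted p = 0.0767 by edgeR). The pyrimidine median of -0.455 was -0.50 without prion 2 and -0.283 without prion 1.

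Of 5 threonine and homoserine genes, 4 were lower and 1 higher without overlap (80% and 20%, beside 23.9% and 23% of all genes). Their median was -0.485, and 0 were called by edgeR (3 at an unadjusted p under 0.05, 1 by DESeq2). THR1, homoserine kinase, had 89.1 and 119 CPM in prion and 62.2 and 69.5 CPM in cured (log2 fold change -0.66, SE 0.184). HOM6, which makes the homoserine that both threonine and methionine need, was the exception at 352 and 300 CPM in prion and 360 and 388 CPM in cured (0.20, SE 0.177).

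Among 35 thioredoxin and glutathione genes 3 were called, all higher (0.457% of all genes were called higher). GRX8, a glutaredoxin, rose from 98.1 and 74.3 CPM to 237 and 304 CPM (log2 fold change 1.65, SE 0.231). FMO1, a flavin-containing monooxygenase that makes oxidising equivalents in the endoplasmic reticulum, rose from 42.7 and 38.5 CPM to 132 and 138 CPM (1.74, SE 0.224). GTT2, a glutathione S-transferase, rose from 45.4 and 30.4 CPM to 87.9 and 82.1 CPM (1.17, SE 0.2). Of all 35, 8 were higher and 10 lower without overlap (22.9% and 28.6%), close to the 23% and 23.9% of all genes. Among the lower, CTT1, cytosolic catalase, was at 32.2 and 94.3 CPM in prion and 19.5 and 30.7 CPM in cured, the states nearly touching (-1.32, SE 0.457, and -0.34 without prion 2). TSA1 and TRX1 were lower without overlap at -0.80 and -0.69, and -0.41 and -0.25 without prion 2. The median of the group, -0.179, turned to 0.0459 without prion 2 and was -0.0504 without cured 1.

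Iron and heme genes had 1 call of 31, which was higher (0.457% of all genes were called higher). HMX1, heme oxygenase, rose from 16.4 and 24.5 CPM to 50.4 and 79.7 CPM (log2 fold change 1.67, SE 0.293, edgeR adjusted p = 0.0449). The iron regulator AFT1 (0.64, SE 0.196) and the iron permease gene FTR1 (0.72, SE 0.222) were higher without overlap, and the heme synthesis genes HEM13 (-0.67) and HEM14 (-0.54) lower, none called. Of these 31, 14 were higher and 6 lower without overlap (45.2% and 19.4%, beside 23% and 23.9% of all genes). The median of 0.168 was 0.1 without cured 1, 0.274 without prion 1 and 0.287 without cured 2.

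In 2 lists of cell wall genes all 8 calls were lower in cured. Of 21 tested glucanase and SUN family genes 4 were called lower and 0 higher (0.473% and 0.457% of all genes were). Without overlap 14 were lower and 1 higher (66.7% and 4.76%, beside 23.9% and 23% of all genes). SCW4, a glucanase-like protein of the wall, was at 440 and 533 CPM in prion and 152 and 138 CPM in cured (log2 fold change -1.75, SE 0.189, edgeR adjusted p = 0.0228). Its relative SCW10 was at 121 and 130 CPM in prion and 52.8 and 46.3 CPM in cured (-1.35, SE 0.16, edgeR adjusted p = 0.0228). In both genes the states were farther apart than the replicates of either. SIM1 of the SUN family fell from 69.0 and 101 CPM to 34.8 and 28.0 CPM (-1.45). GAS1, the glucanosyltransferase that extends beta-glucan chains, fell from 879 and 1095 CPM to 475 and 361 CPM (-1.24). UTR2, GAS3 and UTH1 were lower without overlap at -1.11, -1.05 and -1.26 and missed the threshold. The median was -0.578, and -0.27 without prion 2. The summed level of the list was 4330 and 5810 CPM in prion and 3230 and 2590 CPM in cured.

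Among 25 GPI-anchored and PIR wall proteins 4 were called lower and 0 higher (0.473% and 0.457% of all genes were). Without overlap 15 were lower (60%) against 0 higher, beside 23.9% and 23% of all genes. ECM33 was at 445 and 787 CPM in prion and 204 and 161 CPM in cured (log2 fold change -1.75, SE 0.322). TIP1 was at 404 and 480 CPM in prion and 145 and 165 CPM in cured (-1.51, SE 0.236). CIS3, a PIR protein, was at 145 and 188 CPM in prion and 65.2 and 72.4 CPM in cured (-1.28, SE 0.199). TOS6 was at 17.7 and 37.7 CPM in prion and 7.61 and 5.46 CPM in cured (-2.12, SE 0.362). In these genes prion 2 was the highest library and prion 1 was still above both cured libraries. CWP2, SED1 and CCW14 were lower without overlap but rested on prion 2, with -1.27, -1.09 and -1.35 becoming -0.46, -0.37 and -0.71 without it. CCW12, another abundant wall mannoprotein, overlapped between states (4978 and 7719 CPM in prion, 6738 and 9180 CPM in cured), as did the summed level of the list (10800 and 18100 CPM in prion, 11800 and 13300 CPM in cured). The median of -0.611 was -0.288 without prion 2 and -0.387 without cured 2, and its pairings ran from -1.03 to -0.0997.

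In the PAU, DAN and TIR family of anaerobic wall proteins 6 of 19 were higher and 4 lower without overlap. These shares, 31.6% and 21.1%, were near the 23% and 23.9% of all genes. The median of 0.228 turned to -0.127 without cured 2. PAU23 rose from 6.40 and 5.67 CPM to 22.1 and 32.5 CPM (log2 fold change 2.19, SE 0.289, edgeR adjusted p = 0.0297), while TIR2 (-0.83) and DAN4 (-0.61) were lower without overlap and not called. PAU genes are near-identical copies, so the reads credited to PAU23 are uncertain.

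Mannosylation and N-glycosylation genes, which modify wall and secreted proteins, had a group shift that was even across libraries, without a call. Of 29 genes 21 (72.4%) were lower and 3 higher without overlap, beside 23.9% and 23% of all genes. By edgeR 0 were called (15 lower and 2 higher at an unadjusted p under 0.05), and DESeq2 called 9 lower and 2 higher. The median log2 fold change was -0.464, and -0.408 without prion 2. The 4 pairings lay between -0.431 and -0.582, while the list's median differed by 0.0846 between the prion libraries and by -0.0212 between the cured libraries. DPM1, which makes the mannose donor, was at 87.1 and 134 CPM in prion and 55.8 and 55.4 CPM in cured (-0.99, SE 0.22). OST3 and WBP1 of the oligosaccharyltransferase had -0.90 (SE 0.198) and -0.86 (SE 0.2). OCH1, which starts the outer mannose chain, was at 112 and 128 CPM in prion and 61.5 and 69.1 CPM in cured (-0.88, SE 0.25). MNN4, a positive regulator of mannosylphosphate transfer, was higher without overlap, at 122 and 120 CPM in prion and 212 and 467 CPM in cured (1.49, SE 0.342, edgeR adjusted p = 0.0806).

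Transport to the cell surface had 1 call in a list of 23 genes named for COPI, COPII and the exocyst. That call was a SNARE gene and not a subunit of these complexes, and no other gene of the list was called. Of all genes 0.473% were called lower. SSO2, a plasma membrane t-SNARE, fell from 55.0 and 67.4 CPM to 27.4 and 22.2 CPM (log2 fold change -1.31, SE 0.189, edgeR adjusted p = 0.0297). The coat genes SEC23 (-0.77) and SEC21 (-0.58) were lower without overlap and not called, and the exocyst gene SEC8 was higher (0.48). Outside the lists, YPT31, a Rab GTPase of the Golgi, fell from 199 and 196 CPM to 91.9 and 94.3 CPM (-1.08, SE 0.162). YOP1, which shapes the endoplasmic reticulum, fell from 231 and 257 CPM to 120 and 104 CPM (-1.13), and EMC2, of the membrane protein insertion complex, from 140 and 152 CPM to 77.0 and 74.1 CPM (-0.95).

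Among microtubule genes the calls concerned the tubulins and BIM1. Of 31 tubulin, spindle and kinetochore genes 4 were called, all lower (0.473% of all genes were called lower), and 3 of them are tubulins. Without overlap 13 were lower and 5 higher (41.9% and 16.1%, beside 23.9% and 23% of all genes). TUB2, the beta-tubulin, was at 80.1 and 137 CPM in prion and 37.7 and 34.4 CPM in cured (log2 fold change -1.59, SE 0.251, edgeR adjusted p = 0.0306). TUB1, the main alpha-tubulin, was at 58.1 and 77.1 CPM in prion and 24.6 and 34.2 CPM in cured (-1.19, SE 0.211). TUB3, the minor alpha-tubulin, was at 91.5 and 87.9 CPM in prion and 49.7 and 51.4 CPM in cured (-0.83, SE 0.15). For all 3, each cured library was below each prion library. BIM1, which binds microtubule plus ends, fell from 48.0 and 47.0 CPM to 25.7 and 23.6 CPM (-0.95, SE 0.16). TUB4, gamma-tubulin, was at 10.2 and 12.9 CPM in prion and 9.83 and 8.59 CPM in cured (-0.34, SE 0.28, not called). ASE1, a spindle midzone protein, was higher without overlap (0.63), as was the kinetochore gene NDC80 (0.45), and the median of the list was -0.0495, which turned positive on the TPM scale and without prion 1. TUB1 and TUB3 are close paralogs, and how their reads were divided was kallisto's estimate.

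Histone genes were the list with the lowest median, -1.01, of the 74 examined, and -0.575 without prion 2. All 11 had negative log2 fold changes. Without overlap 10 were lower (90.9%, beside 23.9% of all genes) and 0 higher, and 2 were called (0.473% of all genes were called lower). HTA2, of histone H2A, was at 60.8 and 88.8 CPM in prion and 21.7 and 31.4 CPM in cured (-1.48, SE 0.252, edgeR adjusted p = 0.0412). HHT2, of histone H3, was at 691 and 886 CPM in prion and 299 and 307 CPM in cured (-1.38, SE 0.216, edgeR adjusted p = 0.0306). HTB2, HHT1, HHF1 and HHF2 had log2 fold changes from -1.01 to -1.26 without passing the test. Histone mRNAs are made mainly in S phase and, unlike those of animals, are polyadenylated in yeast. Histone paralogs share much of their sequence, so the split between copies is uncertain.

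Of 10 ribonucleotide reductase genes and regulators 1 was called, lower in cured (0.473% of all genes were called lower). Without overlap 6 were lower and 1 higher (60% and 10%, beside 23.9% and 23% of all genes). RNR1, the large subunit, was at 43.4 and 55.9 CPM in prion and 14.3 and 10.4 CPM in cured (log2 fold change -2.03, SE 0.36, edgeR adjusted p = 0.0455). RNR2 and RNR4, the small subunits, had -0.95 (SE 0.241) and -0.83 (SE 0.219), and SML1, the inhibitor of the enzyme, -1.29 (SE 0.26), all without overlap and not called. RFX1, a repressor of these genes, was the higher member (0.31, SE 0.159, not called). The median over the 10 was -0.758, and -0.411 without prion 2. In the wider list of 32 G1/S genes, which includes RNR1, 19 (59.4%) were lower and 1 higher without overlap, and 1 was called. CLN1, a G1 cyclin, was at 46.4 and 39.5 CPM in prion and 26.0 and 22.1 CPM in cured (-0.84, SE 0.177, not called). The list's median of -0.435 was -0.198 without prion 2 and -0.678 without prion 1. CIP1, a cyclin-dependent kinase inhibitor, fell from 70.2 and 87.8 CPM to 35.7 and 25.5 CPM (-1.38, SE 0.211), and SFG1, a transcription factor of pseudohyphal growth, from 39.5 and 30.2 CPM to 9.97 and 13.7 CPM (-1.54, SE 0.263). Both were listed among 15 regulators of pseudohyphal growth and adhesion, of which 5 were lower and 4 higher without overlap (33.3% and 26.7%, near the 23.9% and 23% of all genes). That list's median of -0.287 was -0.0283 without prion 2 and -0.516 without prion 1.

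Of 33 nuclear genes for the respiratory chain and ATP synthase 21 (63.6%, beside 23.9% of all genes) were lower and 0 higher without overlap. Of these 33, 0 were called by edgeR (15 lower at an unadjusted p under 0.05), and DESeq2 called 10 lower. QCR10, a subunit of complex III, was at 128 and 214 CPM in prion and 77.8 and 73.8 CPM in cured (log2 fold change -1.17, SE 0.251, edgeR adjusted p = 0.0767). COX8 was at 53.6 and 116 CPM in prion and 41.5 and 41.1 CPM in cured (-1.04, and -0.38 without prion 2). The median was -0.536, and -0.344 without prion 2. Of 16 genes of the tricarboxylic acid cycle 10 (62.5%) were lower and 0 higher without overlap, with a median of -0.388 that was -0.204 without prion 2. Of them ACO1, aconitase, was called (-1.23, SE 0.218, edgeR adjusted p = 0.0457), and SDH2, SDH3 and IDH1 were lower without overlap at -1.33, -0.90 and -0.72. As the neighbour of MET17, ACO1 is named in both places. Of 43 genes for mitochondrial ribosomal proteins 17 were higher and 2 lower without overlap (39.5% and 4.65%, beside 23% and 23.9% of all genes). By edgeR 0 were called (5 at an unadjusted p under 0.05), and DESeq2 called 3. Their median of 0.189 was 0.309 without prion 2, 0.0932 without prion 1 and 0.112 without cured 2. The smallest pairing, 0.0408, was below the list's difference within prion (0.167) and within cured (0.199). MRPL20 was the nearest to a call, at 37.4 and 32.1 CPM in prion and 58.4 and 67.1 CPM in cured (0.86, SE 0.16, edgeR adjusted p = 0.0518). RSM22, needed for the mitochondrial small ribosomal subunit, was called (0.87, SE 0.157).

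Reading frames of the mitochondrial genome did not move together. AI2 and AI5_ALPHA, frames within introns of COX1, fell from 180 and 157 CPM to 65.5 and 71.4 CPM (log2 fold change -1.30) and from 75.2 and 76.6 CPM to 31.6 and 29.7 CPM (-1.31). They overlap COX1 and each other, so their reads cannot be told apart, and COX1 itself was at 196 and 161 CPM in prion and 115 and 118 CPM in cured (-0.61, SE 0.206, not called). OLI1, a subunit of ATP synthase, was at 144 and 162 CPM in prion and 373 and 671 CPM in cured (1.77, SE 0.575), COX3 had 1.11 (SE 0.26) and BI4 1.95 (SE 0.423), all higher without overlap and not called. Mitochondrial RNAs of yeast are not stably polyadenylated, and the libraries were selected by oligo(dT), so what these counts measure was not tested. Q0010, another mitochondrial frame, fell by 1.79 on the log2 scale.

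Of 27 autophagy genes 10 were higher and 3 lower without overlap (37% and 11.1%), and 0 were called by edgeR (2 in each direction at an unadjusted p under 0.05) and 0 by DESeq2. ATG8, the ubiquitin-like protein of autophagosome membranes, was at 211 and 319 CPM in prion and 346 and 531 CPM in cured (log2 fold change 0.73, SE 0.304). ATG14, a subunit of the phosphatidylinositol 3-kinase complex, had 0.55 (SE 0.226). ATG19, a receptor of the Cvt pathway, had -0.70 (SE 0.216) and ATG33, which acts in mitophagy, -0.60 (SE 0.205). The median of 0.174 was 0.0358 without prion 1, and the pairings had both signs (-0.0367 to 0.17). Of 29 DNA repair genes, which include RAD59, 6 were higher and 8 lower without overlap (20.7% and 27.6%), near the 23% and 23.9% of all genes. The median of 0.0134 was -0.0164 without prion 2, and negative without any other preSPO library too (-0.0405 to -0.00674).

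Of the 59 called genes 20 were in none of the lists. Among those higher were GIP1, a meiosis-specific partner of the phosphatase Glc7, which rose from 51.8 and 38.8 CPM to 108 and 104 CPM (log2 fold change 1.23, SE 0.176), ANT1, the peroxisomal adenine nucleotide transporter (0.92), and SUT1, a transcription factor of sterol uptake (0.88). CST9, or ZIP3, which acts in meiotic synapsis and was in the list of early meiotic recombination genes, rose from 37.1 and 39.5 CPM to 71.6 and 88.3 CPM (1.06, SE 0.165). It was the 1 call among the 22 genes of that list, of which 10 had positive and 12 negative log2 fold changes. Without overlap 7 were higher and 4 lower (31.8% and 18.2%, beside 23% and 23.9% of all genes). The list's median of -0.106 turned to 0.119 without prion 2. The neighbour of CST9, ART10, an arrestin-related ubiquitin ligase adaptor 1644 bases away, rose from 142 and 177 CPM to 368 and 481 CPM (1.41, SE 0.207). The transporter genes SEO1 (1.41) and RCH1 (1.42) also rose. SRL3, not a transporter gene, rose from 21.4 and 24.6 CPM to 46.7 and 47.3 CPM (1.03, SE 0.157). YGR018C rose by 3.34 from 3.97 and 2.50 CPM to 21.2 and 43.0 CPM, but shares 316 bases with YGR017W on the opposite strand (0.18, SE 0.158), and without a stated strand setting the 2 cannot be told apart. YJL206C, YKL123W and YKL111C, for which no function is given here, rose by 1.32, 1.25 and 1.44. Among those lower, besides the secretory genes above, were AAP1, an aminopeptidase (-0.98), OPI10 (-1.07) and YGL199C (-2.15).

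**Figure D4:**
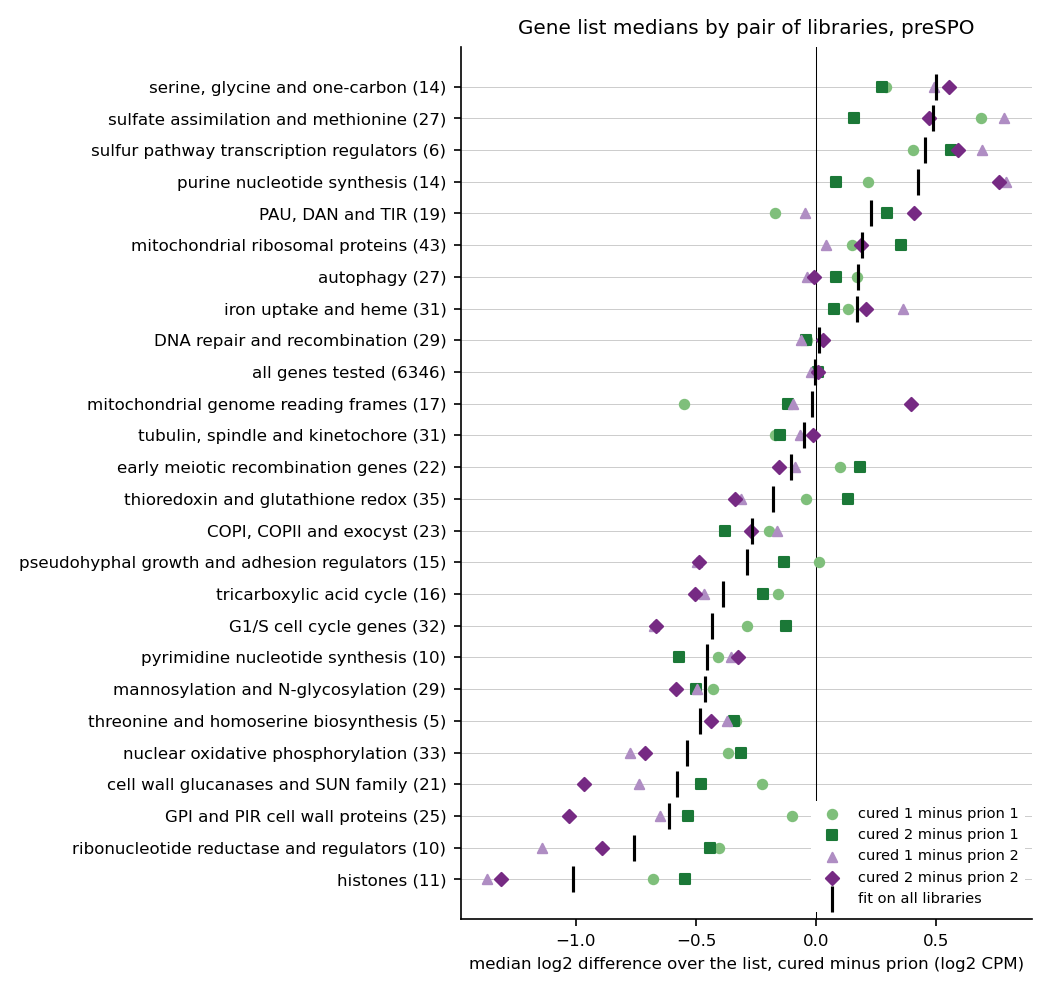
Median difference of each described gene list, cured minus prion in log2 CPM, for each of the 4 pairings of a cured with a prion library (points) and for the fit on all libraries (bars), with the number of genes tested in parentheses. Pairings with prion 2 (purple) lie farther from 0 than those with prion 1 (green) for the histones and wall proteins, whereas the 4 points for mannosylation lie between -0.431 and -0.582.

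Of 74 gene lists, 19 held a called gene and 44 had medians of 1 sign in all 4 pairings, 35 of them lower in cured and 9 higher. Some of these came close to 0, such as cell wall integrity and HOG signalling, with a smallest pairing of -0.00233. For all genes the pairing medians lay between -0.02 and 0.00944. The signs were counted on TMM scaling only, while the median of all genes was 0.104 and 0.112 on the TPM scales. In 11 lists even the smallest pairing exceeded the list's median difference within both states. Lower among these were mannosylation, threonine and homoserine, fatty acid and sphingolipid synthesis (median -0.368), ergosterol synthesis (-0.231), COPI, COPII and exocyst (-0.267), and the plasma membrane proton pump with cation transport (-0.263, and -0.609 without cured 1). Also lower were G2/M genes (-0.237), RNA-binding translation regulators other than Vts1 (-0.224) and septins with polarity genes (-0.0759, and -0.215 without cured 2). Serine and one-carbon genes and the sulfur regulators were the 2 higher ones. The histone, ribonucleotide reductase and wall lists did not meet this criterion, since their difference between prion 2 and prion 1 (0.581, 0.467, 0.653 for GPI and PIR proteins, 0.393 for glucanases) was larger than the smallest pairing. The 49 lists not described had 0 called genes and medians from -0.449 to 0.163. They include cytosolic ribosomal proteins (-0.123), with pairings of both signs, and the Ccr4-Not and mRNA decay genes (0.0114), through which Vts1 acts.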

How the data were processed

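The authors quantified reads with kallisto on build R64, per the submitters' processing notes; the sources used here do not state its version, index or strand setting. For each target the authors' tables hold the length and effective length beside an estimated count and a TPM value. Deposited estimated counts can be fractional and were rounded to whole numbers. The TPM values, as deposited, were used in 2 alternatives (pseudocounts 1 and 0.1, minimum mean 1 TPM). Lengths are multiples of 3 for 6711 of 6713 targets, so they are coding lengths. A locus tag in R64 was found for 6026 targets (89.8%). Library totals in the study ran from 4650288 to 71684771, and TAR1, encoded antisense to ribosomal RNA genes, took 3.18% to 8.22% of a preSPO library. Its share was 3.18% in prion 1, 8.22% in prion 2, 4.38% in cured 1 and 5.29% in cured 2.

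Tests were edgeR 4.0.16 quasi-likelihood F-tests (R 4.3.3) with 1 mean per group over all 8 libraries (TMM, filterByExpr, robust=FALSE, 4 residual degrees of freedom), two-sided, with Benjamini-Hochberg adjustment over 6346 genes and calls under 0.05. The fit was checked on simulated data. DESeq2 1.42.0, limma 3.58.1, other scalings and left-out libraries were alternatives. Gene lists were described by counts and medians and not tested; pairings used log2 CPM with a prior count of 2. The comparison, the lists and the named genes were chosen with earlier results of these data known. The naming rule takes the strain markers, every called gene and, per described list, up to 4 further members with the largest change without overlap and at least 10 CPM in a state. Lists were described if they held a call or were among the 8 highest or 8 lowest medians. SAM1, SAM2, SER1, SER2, SER3, MET6, CYS3, TUB4, CCW12, WBP1, COX1 and the genes that share both motifs were named beyond it, after their values were seen. Of 8 motifs searched, 1 is not reported here.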

Additional observations from a re-analysis of the deposited data

Results flagged for a closer look

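AI2, a reading frame within an intron of the mitochondrial COX1 gene, is the 1 called gene whose interaction between state and medium passed an adjusted p of 0.05. It was at 180 and 157 CPM in prion and 65.5 and 71.4 CPM in cured in preSPO medium, and at 249 and 283 CPM in prion and 588 and 654 CPM in cured in SPO medium. It was thus lower in cured in the first medium and higher in the second, without overlap in either. The interaction was 2.52 on the log2 scale (SE 0.258, Benjamini-Hochberg adjusted p = 0.0341 by edgeR). AI5_ALPHA, which overlaps it, had an interaction of 1.68 (SE 0.23, edgeR adjusted p = 0.0666). SCW4 came next, at 2.24 (SE 0.263, edgeR adjusted p = 0.0515), and a missed threshold does not show that the other called genes differed alike in both media. In SPO medium the libraries prion 2 and cured 1 go against their labels in MET17, with 1 and 447 counts; their part in this difference was not tested.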

How the results depend on the processing

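All 59 genes called between the states kept their direction under all 18 alternatives. The counts did not hold. DESeq2 called 441 genes (173 higher, 268 lower), and the 4 preSPO libraries alone gave 14 (11 and 3, of which 10 were among the 59). Library size scaling gave 18 lower, limma on log2(TPM + 1) 62 higher, and on log2(TPM + 0.1) 56 higher and 16 lower, with the median of all genes moved to 0.112. Leaving out 1 library at a time gave 0 to 466 calls, 0 to 211 higher and 0 to 255 lower. Without prion 2 the calls were UGA1 and UGA4, of which UGA4 stood at 871 CPM in prion 1 and 205 CPM in prion 2. Without both SPO libraries that go against their labels in MET17, an alternative chosen after seeing the data, 10 were called (7 and 3), 9 of them among the 59. YER160C was called in 15 of 18 alternatives, and FMO1, MET32, PAU23, RAD59, SCW4, SUL2 and YGR018C in 13 each. The cause of the changed counts was not tested.

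With the replicate number as a block, 142 genes were called (65 higher, 77 lower), including all 59. The labels give no shared culture day. Same-numbered deviations from the group means correlated at 0.15 between the preSPO groups and at -0.0489 to 0.316 over the 6 pairs of groups, so the numbers were not taken as pairs.

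Uncalled genes that reversed were LYS2 (0.06 and 0.0625 on the TPM scales, -0.097 to 0.0105 with 1 library left out), VTS1 (-0.113 to 0.96) and HIS3 (-0.454 to 0.252), the last 2 reversed without prion 2. With 2 replicates a side, no gene with an absolute log2 fold change under 0.826 was called, and every result rests on the labels.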
